A study of Mus musculus with 6 samples.

Results

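ATAC-seq, an assay that marks open chromatin by letting a transposase insert adapters there, was read at the genes of histone methylation and deacetylation enzymes in mouse liver. Open regions were taken as members when the nearest protein-coding gene, within 50 kb, had a symbol starting with Kdm, Kmt, Setd, Prdm or Hdac, leaving out 3 deacetylase genes with a part in the corepressor complexes themselves or in related ones. This gave 442 of 109853 merged regions (0.402%), linked to 56 of 57 such genes. The double knockout livers (dKO, 3 libraries) carried the genotype Ncor1/2 F/F with AAV-Cre, an adeno-associated virus delivering Cre recombinase, and the controls (3 libraries) carried the same floxed alleles with AAV-eGFP. All were from males, collected at zeitgeber time 10 (ZT10) on day 5 after the virus, and HNF4a-positive hepatocyte nuclei were sorted before library preparation. The control livers therefore carried floxed alleles and a virus too. The promoter that drives Cre, the virus serotype, the ages and the share of nuclei that were recombined are not stated in the labels, nor is it stated whether libraries stem from separate animals.

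Histone methyltransferases place methyl groups on lysines of histone tails, demethylases take them off, and histone deacetylases remove acetyl groups, a step usually tied to closed chromatin. The corepressors encoded by the Ncor genes bind unliganded nuclear receptors and bring a deacetylase to DNA. Class IIa deacetylases (Hdac4, Hdac5, Hdac7, Hdac9) have little activity of their own and act largely by binding such corepressor complexes, and in liver they are known for responding to glucagon in the control of gluconeogenic genes. PRDM proteins carry a domain related to that of methyltransferases, active in a few members and apparently not in most, which act as zinc finger transcription factors.

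Of the 62 RefSeq promoter windows found for 44 of the 57 genes (250 bases before to 50 after an annotated start, build GRCm38.p6, the same as mm10), 39 overlapped a member region and 4 overlapped a region called different between the groups. The matching shares over all promoter windows were not counted, so these numbers cannot be read as many or few. The 4 windows with a called region are shown here with the other Kmt5a windows, so that the 3 starts of that gene can be compared. Each is printed 5′ to 3′ on the strand of its gene, and capitals mark matches, on either strand, to AGGTCA (the core hexamer bound by nuclear receptors), CACGTG (E-box), GGGCGG (GC box), CCGGAAG (ETS core) or CCAAT.
Hdac4, chr1:92180292-92180591, minus strand: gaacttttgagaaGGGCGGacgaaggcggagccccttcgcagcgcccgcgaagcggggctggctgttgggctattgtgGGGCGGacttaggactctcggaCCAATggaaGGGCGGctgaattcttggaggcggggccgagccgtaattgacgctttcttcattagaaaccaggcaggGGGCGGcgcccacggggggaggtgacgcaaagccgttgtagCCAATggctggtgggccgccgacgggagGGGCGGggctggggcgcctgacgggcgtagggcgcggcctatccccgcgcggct
Hdac6, chrX:7947840-7948139, minus strand: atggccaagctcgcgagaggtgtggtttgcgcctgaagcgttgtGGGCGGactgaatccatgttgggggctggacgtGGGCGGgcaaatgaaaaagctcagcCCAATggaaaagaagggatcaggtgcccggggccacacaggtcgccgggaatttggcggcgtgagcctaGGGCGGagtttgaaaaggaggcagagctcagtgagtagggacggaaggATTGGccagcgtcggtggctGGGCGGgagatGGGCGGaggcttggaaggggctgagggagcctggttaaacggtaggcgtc
Prdm1, chr10:44458699-44458998, minus strand: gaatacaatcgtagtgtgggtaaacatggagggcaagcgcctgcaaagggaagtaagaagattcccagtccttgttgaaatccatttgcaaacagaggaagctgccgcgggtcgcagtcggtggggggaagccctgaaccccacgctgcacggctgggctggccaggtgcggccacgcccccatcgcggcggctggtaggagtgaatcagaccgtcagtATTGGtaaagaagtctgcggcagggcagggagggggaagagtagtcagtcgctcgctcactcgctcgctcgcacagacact
Kmt5a, chr5:124439680-124439979, plus strand: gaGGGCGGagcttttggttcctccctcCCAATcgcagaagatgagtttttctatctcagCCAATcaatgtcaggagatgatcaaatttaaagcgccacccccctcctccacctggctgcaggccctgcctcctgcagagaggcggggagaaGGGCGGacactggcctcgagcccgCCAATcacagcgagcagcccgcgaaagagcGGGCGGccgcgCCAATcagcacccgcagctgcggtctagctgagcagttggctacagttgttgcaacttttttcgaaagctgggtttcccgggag
Kmt5a, chr5:124445249-124445548, plus strand: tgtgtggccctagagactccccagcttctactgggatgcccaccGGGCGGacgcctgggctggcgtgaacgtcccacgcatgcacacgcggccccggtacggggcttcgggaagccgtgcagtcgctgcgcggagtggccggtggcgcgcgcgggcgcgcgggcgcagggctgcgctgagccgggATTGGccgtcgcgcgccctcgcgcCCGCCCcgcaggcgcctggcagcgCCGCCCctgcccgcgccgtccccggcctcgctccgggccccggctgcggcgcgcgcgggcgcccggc
Kmt5a, chr5:124446454-124446753, plus strand: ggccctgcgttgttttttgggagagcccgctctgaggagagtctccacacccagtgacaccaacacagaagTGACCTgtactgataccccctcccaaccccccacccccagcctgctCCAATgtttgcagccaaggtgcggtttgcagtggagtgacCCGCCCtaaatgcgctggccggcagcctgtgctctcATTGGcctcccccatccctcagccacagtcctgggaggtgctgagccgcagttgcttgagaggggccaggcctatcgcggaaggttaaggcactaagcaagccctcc
The Hdac4 and Hdac6 windows overlapped regions lower in dKO, the Prdm1 window a region higher in dKO, and the Kmt5a window at 124446454 a region higher in dKO. The other Kmt5a windows overlapped shared regions that were not called, and the one at 124439680 also overlapped a site with a peak in dKO libraries only. Over the whole window, Hdac4 and Hdac6 each held 5 GC boxes and 2 CCAAT boxes. The called regions covered only part of these windows, so not all of these matches lie in them. The Kmt5a window that overlapped a higher region held 1 AGGTCA match. That match lay before the start of the region at 124446587, so outside the called region. None of the 6 held an E-box or an ETS core. Over all 32851 windows of the table, 16.3% held AGGTCA, 35.7% a GC box, 37.4% CCAAT, 8.86% the ETS core and 7.15% an E-box. Among the 62 member windows the shares were 9.68%, 59.7%, 48.4%, 12.9% and 6.45% in the same order. The glucocorticoid response element, searched in a full and a looser form, was in 0 of 62 member windows, against 0.00913% and 0.475% of all windows. These matches are letters in a window and are not measured binding sites.

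The sorted nuclei had open chromatin at hepatocyte markers. Peaks lay within 1 kb of a gene end at 6, 8 and 7 of 8 hepatocyte markers in dKO 1, 2 and 3, and at 8, 7 and 4 of 8 in control 1, 2 and 3, with summed values of 350 to 564 in dKO and 322 to 591 in control. Markers of Kupffer cells and macrophages (6 genes), T and NK cells (4), B cells (3) and neutrophils (3) had no peak there in any library. Peaks were found at 1 to 2 of 6 endothelial markers (summed values 4.26 to 13.9 in dKO and 3.92 to 9.74 in control), at 2 of 6 stellate markers (26.2 to 54.4 and 34.0 to 52.7) and at 2 of 5 cholangiocyte markers (30.6 to 46.9 and 23.2 to 43.4). In these 3 lists Lyve1, Kdr and Cdh5 (endothelial), Lrat and Reln (stellate) and Epcam and Sox9 (cholangiocyte) had such a peak in at least 1 library. Stab2, Clec4g and Pecam1 (endothelial), Pdgfrb, Dcn, Colec11 and Hand2 (stellate) and Krt19, Krt7 and Spp1 (cholangiocyte) had one in none, and the part of these cells in the results was not tested. At Ncor1, 1 of 6 shared regions was higher in dKO and 0 lower, with log2 differences of -0.09 to 0.50. The labels do not name the floxed exons, so the deletion itself was not checked. Values are normalized tag counts, a depth-scaled signal, printed as deposited. Their median over all shared regions was 15.6, 13.5 and 17.4 in dKO 1, 2 and 3 and 16.0, 16.1 and 16.3 in control 1, 2 and 3, and the log2 differences are taken after centring on it. Peak width split the lists into a narrow class (dKO 1, dKO 2, control 1) and a wide class (dKO 3, control 2, control 3). Differences within each class are given beside the 5 results that lead below, and the pattern over all calls is given at the end. More nuclei with an open site cannot be told apart from a more open site in each nucleus.

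Member regions changed in both directions, with a smaller share called than over all shared regions. The calls lay at methyltransferase, demethylase, PRDM and deacetylase genes. Of the methyltransferase groups, only the H3K4 group had a region called lower. Of the 442, 196 (44.3%) were called in all 6 libraries and could be tested, against 47.1% of all regions. At an adjusted p under 0.05 (limma), 13 of these 196 (6.63%) were higher in dKO and 11 (5.61%) lower, at 14 genes. Over all 51749 shared regions 8.19% were higher and 11.6% lower, 19.8% in all, against 12.2% of the members. An unadjusted p under 0.05 (limma) was found in 54 of the 196 members and in 17863 of all 51749 shared regions. Counts at that p in the groups below are to be read beside this. The median log2 difference was -0.01 over the members and -0.02 over all shared regions. The 13 higher regions had log2 differences of 0.49 to 1.57 with a median of 0.58, against 0.67 over all higher regions. The 11 lower regions had -0.95 to -0.40 with a median of -0.50, against -0.58 over all lower regions. In 20 members (10.2%) every dKO library lay above every control, against 12.6% of all shared regions, and in 17 (8.67%) every dKO library lay below, against 15.8%. Without dKO 2 the members called fell to 2 higher and 3 lower, without dKO 1 to 6 and 3, and without control 1 to 9 and 6, while without dKO 3 there were 15 and 26. Of the 24 calls, 16 were kept with quantile normalization, 15 with cyclic loess and 13 without centring.

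**Figure D1:**
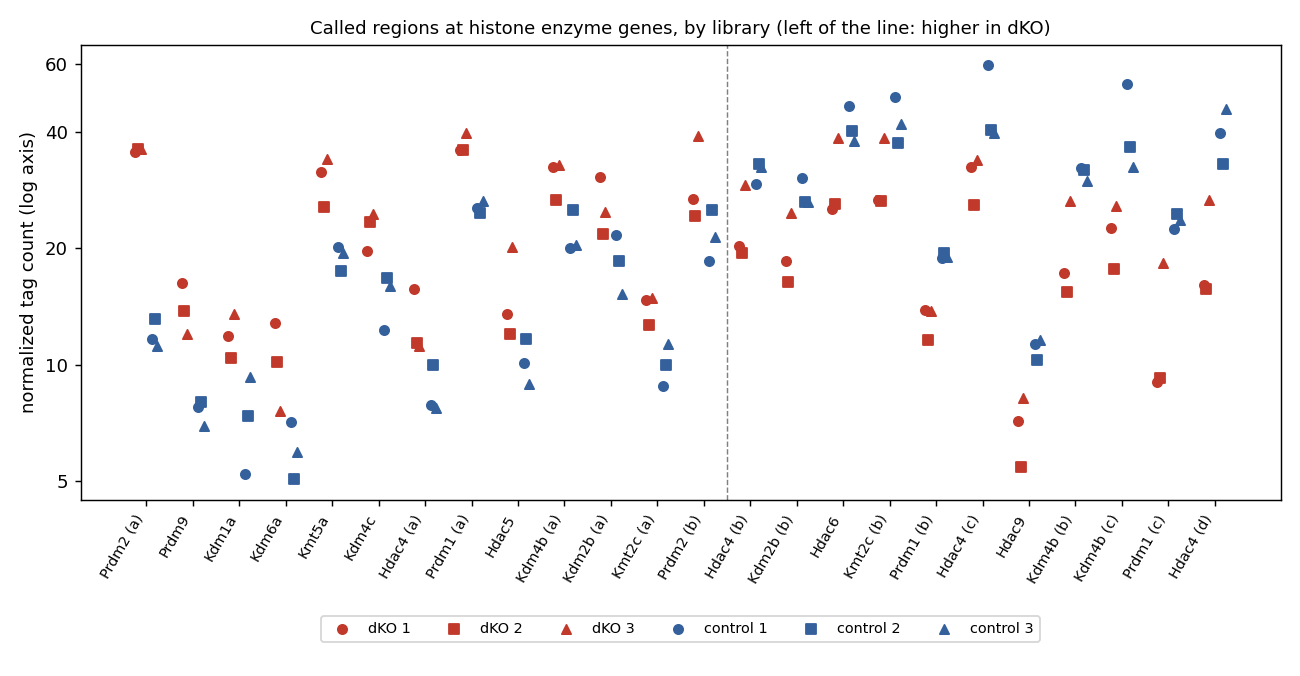
Normalized tag count (log axis) in each of the 6 libraries for the 24 called member regions, 13 higher in dKO left of the dashed line and 11 lower to its right. Red marks are dKO libraries, blue marks control libraries and shapes the replicate number, and letters tell regions of 1 gene apart. The groups did not overlap in 12 regions of the 13 on the left and in 9 of the 11 on the right. The calls were made on these same values, so this is no separate support. Over all shared regions, called or not, every dKO library lay above every control in 12.6% and below in 15.8%.

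Members lie within 50 kb of a gene by the rule, which other regions need not. Of all members 76.7% lay inside the gene span, against 59.2% of all regions. Of the 13 higher regions 12 lay inside it (92.3%), against 61.3% of all higher regions. Of the 11 lower regions 5 did (45.5%), near the 49.0% of all lower regions, and of the members not called 72.7% did. By place, 0 of the 42 shared member regions within 1 kb of a gene end were higher (limma, with 2 positive differences at an unadjusted p under 0.05), where 2.74% of all such regions were. At gene ends, 3 of the 42 (7.14%) were lower, against 10.5% of all such regions. The lower regions at gene ends were those of Kdm4b, Kmt2c and Hdac6. A gene end here is an end of the whole gene span, so annotated starts inside the span are not counted. The higher regions overlapping Kmt5a and Prdm1 promoter windows lay 6759 and 21501 bp from such an end. The lower region overlapping the Hdac4 window lay 15151 bp from one. Members called higher had a median normalized tag count of 18.8, and those called lower one of 27.3. The same order held over all regions, at 12.7 for higher and 24.1 for lower ones.

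**Figure D2:**
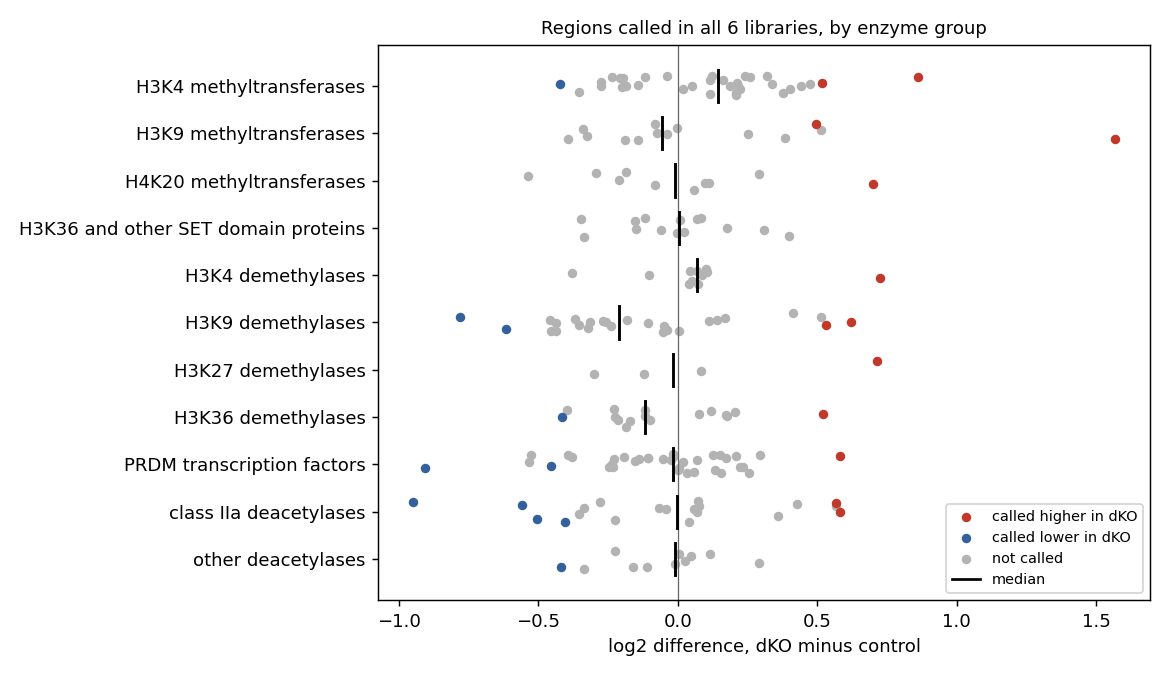
Log2 difference (dKO minus control) of the 196 shared member regions, in rows by enzyme group, 1 point per region. Red points were called higher in dKO, blue points called lower and grey points not called, and the black bar is the median of the group. Class IIa deacetylases held 4 of the 11 lower regions, which were 20% of their 20 shared regions, against 11.6% of all shared regions. Hdac4 held 3 of the 4. Only its region starting at 91988880 kept the call in every setting.

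Among methyltransferases, the H3K4 group (Kmt2 and Setd1 genes, Setd7 and the meiotic enzyme Prdm9) had 2 of 34 shared regions higher and 1 lower. Its median log2 difference was 0.14. Kmt2 genes were placed there by family name, Kmt2e included, whether or not each protein is an active enzyme. The H3K9 group had 2 of 14 higher, both at Prdm2, and the H4K20 group 1 of 10 higher, at Kmt5a. The remaining SET domain genes, Setd2 to Setd6, had 0 of 14 called by limma, with 3 at an unadjusted p under 0.05. Taken by symbol, all 27 shared regions of the Setd family were uncalled by limma, with 6 at an unadjusted p under 0.05.

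Prdm2 encodes a PR domain methyltransferase of H3K9. Its strongest difference, a region inside the gene at chr4:143118955-143119142, was already known from earlier work on these data. It had normalized tag counts of 35.4, 36.1 and 36.2 in dKO, against 11.7, 13.1 and 11.2 in control. The 3 dKO libraries were nearly equal and well above all 3 controls, with means of 35.9 ± 0.44 and 12.0 ± 0.98 (SD, n = 3 each), and the log2 difference was 1.57 (SE 0.14, limma adjusted p = 0.000272), with 1.66 in the narrow and 1.41 in the wide class. A nearby region in the gene, starting at 143120142, had 26.8, 24.2 and 39.0 in dKO and 18.5, 25.1 and 21.4 in control. The groups overlapped there, and the log2 difference was 0.49 (SE 0.15, limma adjusted p = 0.0299), a call lost without dKO 1 (0.0606), dKO 2 (0.0902), dKO 3 (0.0813), control 1 (0.091) or control 3 (0.0627), or without centring (0.135). The other 9 of the 11 shared Prdm2 regions were not called, and the gene had 28 member regions in all.

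Kmt5a encodes the enzyme that places the first methyl group on H4K20. Its region at chr5:124446587-124446791, over the start printed above, had 31.5, 25.6 and 34.1 in dKO, against 20.2, 17.5 and 19.5 in control. All dKO libraries lay above all controls, with means of 30.4 ± 4.36 and 19.1 ± 1.40 (SD, n = 3 each) and a log2 difference of 0.70 (SE 0.12, limma adjusted p = 0.00279, 0.60 and 0.75 in the narrow and wide class). At the start of the gene nearest its end, a region starting at 124439571 had 17.6, 12.4 and 19.3 in dKO and 24.6, 19.7 and 18.9 in control. That log2 difference was -0.29 and was not called (adjusted p = 0.186). The middle start had a log2 difference of 0.11, so 1 of the 3 windows overlapped a called region. The first window also overlapped part of a site found in dKO alone, described further on.

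Prdm9, a methyltransferase known for marking recombination sites in germ cells, was linked to a region 13140 bp outside the gene (chr17:15577422-15577606). It had 16.3, 13.8 and 12.0 in dKO and 7.77, 8.04 and 6.95 in control. All dKO libraries were higher, with a log2 difference of 0.86 (SE 0.18, limma adjusted p = 0.00656, and 0.0525 without dKO 2). Kmt2c, which methylates H3K4 at enhancers, had 1 region higher inside the gene, starting at 25461635, with 14.7, 12.7 and 14.9 in dKO and 8.83, 10 and 11.3 in control, and a log2 difference of 0.52 (adjusted p = 0.0325, and 0.0687 to 0.135 without dKO 1, dKO 2, control 1 or control 2). It was also lost without centring (0.115) and with cyclic loess (0.0544). Another region 814 bp outside its end, starting at 25499572, was lower, with 26.7, 26.5 and 38.6 in dKO and 49.3, 37.4 and 41.8 in control. Its groups overlapped through dKO 3, and the log2 difference was -0.42 (adjusted p = 0.0404, and 0.0676 to 0.177 without dKO 1, dKO 2, control 1 or control 3). Quantile and cyclic loess normalization lowered it to -0.27 and ended the call (0.129 and 0.119), as did no centring (0.0759) and leaving out low-scoring peaks (0.0583).

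Setd7, a methyltransferase of H3K4, held the uncalled Setd region nearest to the threshold among its 7 shared ones, starting at 51559691. It had 14.7, 11.9 and 14.4 in dKO and 10.3, 8.52 and 11.3 in control, a log2 difference of 0.47 (limma adjusted p = 0.0509). The groups did not overlap. Setd2, which places the H3K36 trimethyl mark, had one of the strongest member regions at its gene end, with 62.0, 61.9 and 88.4 in dKO and 73.1, 70.2 and 72.0 in control, overlapping groups and a log2 difference of 0.02. Strong end regions of Kmt2b (-0.27, mean value 114), Kdm7a (-0.11), Prdm4 (-0.11) and Hdac11 (-0.16) were likewise not called.

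Demethylase genes had 57 shared regions, 5 of them (8.77%) higher in dKO and 3 (5.26%) lower, against 8.19% and 11.6% of all shared regions. The H3K9 demethylases had 2 of 26 shared regions higher and 2 lower with a median log2 difference of -0.21. A further 10 of their regions had an unadjusted p under 0.05 without a call. With the called ones this made 14 of 26, where 17863 of all 51749 shared regions had such a p. The H3K4 group had 1 of 11 higher, the H3K27 group 1 of 4 higher, and the H3K36 group 1 of 16 higher and 1 lower.

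Kdm4b, which removes methyl groups from H3K9, changed in both directions from one end of the gene to the other. The region 266 bp outside its end at chr17:56325588-56325821 had 22.6, 17.7 and 25.8 in dKO, against 53.1, 36.6 and 32.5 in control. All dKO libraries were lower, with means of 22.0 ± 4.08 and 40.7 ± 10.9 (SD, n = 3 each) and a log2 difference of -0.78 (SE 0.16, limma adjusted p = 0.00607, -1.23 and -0.50 in the narrow and wide class), and control 1 was the highest control. Beyond the opposite end, 1756 bp outside, a region starting at 56405428 had 17.3, 15.4 and 26.5 in dKO and 32.3, 31.8 and 29.9 in control. It was also lower in every dKO library, with dKO 3 closest to the controls, and the log2 difference was -0.62 (adjusted p = 0.00916, and 0.0572 without dKO 1 or 0.0682 without dKO 2). Inside the gene, a region starting at 56393364 was higher, with 32.5, 26.6 and 32.8 in dKO and 20, 25.1 and 20.4 in control, and a log2 difference of 0.53 (adjusted p = 0.0119, and 0.069 without dKO 1, 0.0677 without dKO 2 or 0.0761 without centring). The other 4 shared regions of Kdm4b, all between these, were not called.

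Kdm4c, a related H3K9 demethylase, had 1 of 5 shared regions higher, starting at 74294793, with 19.7, 23.4 and 24.6 in dKO and 12.3, 16.8 and 16.0 in control. The groups did not overlap, and the log2 difference was 0.62 (limma adjusted p = 0.0161, and 0.119 without dKO 2 or 0.0522 without control 1). Kdm7a, a demethylase with a PHD finger, had a negative log2 difference in all 7 shared regions (-0.45 to -0.11), of which 5 had an unadjusted p under 0.05 and none was called. Quantile and cyclic loess normalization, and the sum of peaks in place of the highest, each turned its strongest region, at the gene end, positive without a call.

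Kdm1a encodes the flavin-dependent demethylase of H3K4. Its region inside the gene, starting at 136592206, had 11.9, 10.4 and 13.5 in dKO and 5.22, 7.37 and 9.31 in control, higher in every dKO library, with a log2 difference of 0.72 (limma adjusted p = 0.0156, and 0.0562 without dKO 1, 0.0736 without dKO 2 or 0.0544 without control 1). Kdm6a, which removes methyl groups from H3K27, had a weak region starting at 18250693 with 12.8, 10.2 and 7.59 in dKO and 7.13, 5.07 and 5.94 in control. The groups did not overlap but dKO 3 lay near control 1, and the log2 difference was 0.71 (adjusted p = 0.0318, and 0.0706 to 0.152 without dKO 1, dKO 2, control 2 or control 3, or 0.0737 with quantile and 0.0728 with cyclic loess normalization).

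Kdm2b, an H3K36 demethylase that also brings a Polycomb complex to unmethylated CpG sites, had 12 shared regions. Inside the gene, 1 region starting at 122882746 was higher, with 30.6, 21.8 and 24.9 in dKO and 21.6, 18.6 and 15.2 in control. The lowest dKO library was just above the highest control, and the log2 difference was 0.52 (limma adjusted p = 0.0345, and 0.0561 to 0.178 without dKO 1, dKO 2, control 2 or control 3, or 0.103 without centring). Another region 11860 bp outside, starting at 123001041, was lower, with 18.6, 16.4 and 24.7 in dKO and 30.4, 26.4 and 26.4 in control, a log2 difference of -0.41 (adjusted p = 0.0387, and 0.0541 to 0.166 without any 1 library other than dKO 3). Other scalings (0.0808 to 0.084) and leaving out low-scoring peaks (0.0674) ended this call too.

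Of the deacetylase genes, the class IIa group had 2 of 20 shared regions higher and 4 lower (30% called, against 19.8% of all shared regions), and 4 of those 6 were at Hdac4. The other deacetylases had 0 of 11 higher by limma and 1 lower, with 2 at an unadjusted p under 0.05 in either direction.

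Hdac4 had 33 member regions, 14 of them shared, spread along a long stretch of chromosome 1. The region inside the gene at chr1:91988880-91989168 had 16.1, 15.7 and 26.7 in dKO, against 39.7, 33.0 and 45.7 in control. All dKO libraries were lower, with means of 19.5 ± 6.24 and 39.5 ± 6.35 (SD, n = 3 each) and a log2 difference of -0.95 (SE 0.16, limma adjusted p = 0.00233, -1.14 and -0.62 in the narrow and wide class). The region over part of the printed window, starting at 92180447, had 32.5, 25.9 and 33.8 in dKO and 59.4, 40.4 and 39.7 in control. It was lower in every dKO library, by -0.50 on the log2 scale (adjusted p = 0.0287, and 0.0721 without dKO 1, 0.129 without dKO 2 or 0.0805 without control 1), and the call was lost with quantile (0.104) and cyclic loess (0.102) normalization. A region 34277 bp outside the gene, starting at 91894400, had 20.3, 19.4 and 29.2 in dKO and 29.3, 33.0 and 32.5 in control. There dKO 3 almost met control 1, and the log2 difference was -0.40 (adjusted p = 0.0402, and 0.0891 to 0.18 without dKO 1, dKO 2, control 2 or control 3). Other scalings (0.0895 to 0.119), leaving out low-scoring peaks (0.0699) and a width term (0.0568) ended it too. The higher region, inside the gene and starting at 92083194, had 15.7, 11.4 and 11.2 in dKO and 7.88, 10 and 7.74 in control, with a log2 difference of 0.58 (adjusted p = 0.0405, and 0.101 to 0.177 without dKO 1, dKO 2, control 1 or control 3). Other scalings (0.0727 to 0.0776), a width term (0.0609) and the fit with at least 3 libraries (0.0538) ended that call. The other 10 shared Hdac4 regions had log2 differences of -0.36 to 0.57 and were not called, including its strongest, starting at 92100564, with 60.4, 54.2 and 64.0 in dKO and 64.1, 59.4 and 53.5 in control.

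Hdac5 and Hdac9, of the same class, had 1 called region each, inside the gene and in opposite directions. The Hdac5 region starting at 102211100 had 13.5, 12.0 and 20.2 in dKO and 10.1, 11.7 and 8.91 in control, higher in every dKO library but closely so for dKO 2, with a log2 difference of 0.57 (limma adjusted p = 0.0324, and 0.0627 to 0.104 without any 1 library other than control 2, or 0.0508 to 0.0997 with other scalings). The Hdac9 region starting at 34720944 was weak, with 7.17, 5.44 and 8.20 in dKO and 11.3, 10.3 and 11.6 in control, lower in every dKO library, by -0.56 on the log2 scale (adjusted p = 0.022, and 0.0639 without dKO 1, 0.118 without dKO 2 or 0.063 without control 3). Hdac6, a largely cytoplasmic enzyme known for acting on tubulin, had a single region, over part of its promoter window. It had 25.2, 26 and 38.5 in dKO and 46.5, 40.1 and 37.8 in control. Here dKO 3 lay within the controls, and the log2 difference was -0.42 (adjusted p = 0.0436, and 0.0712 to 0.198 without dKO 1, dKO 2, control 1 or control 2). Quantile and cyclic loess normalization lowered it to -0.27 and -0.26 and ended the call (0.137 and 0.12). It was also lost without centring (0.0802), without low-scoring peaks (0.0621), with a width term (0.0542) and in the fit with at least 3 libraries (0.0509).

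**Figure D3:**
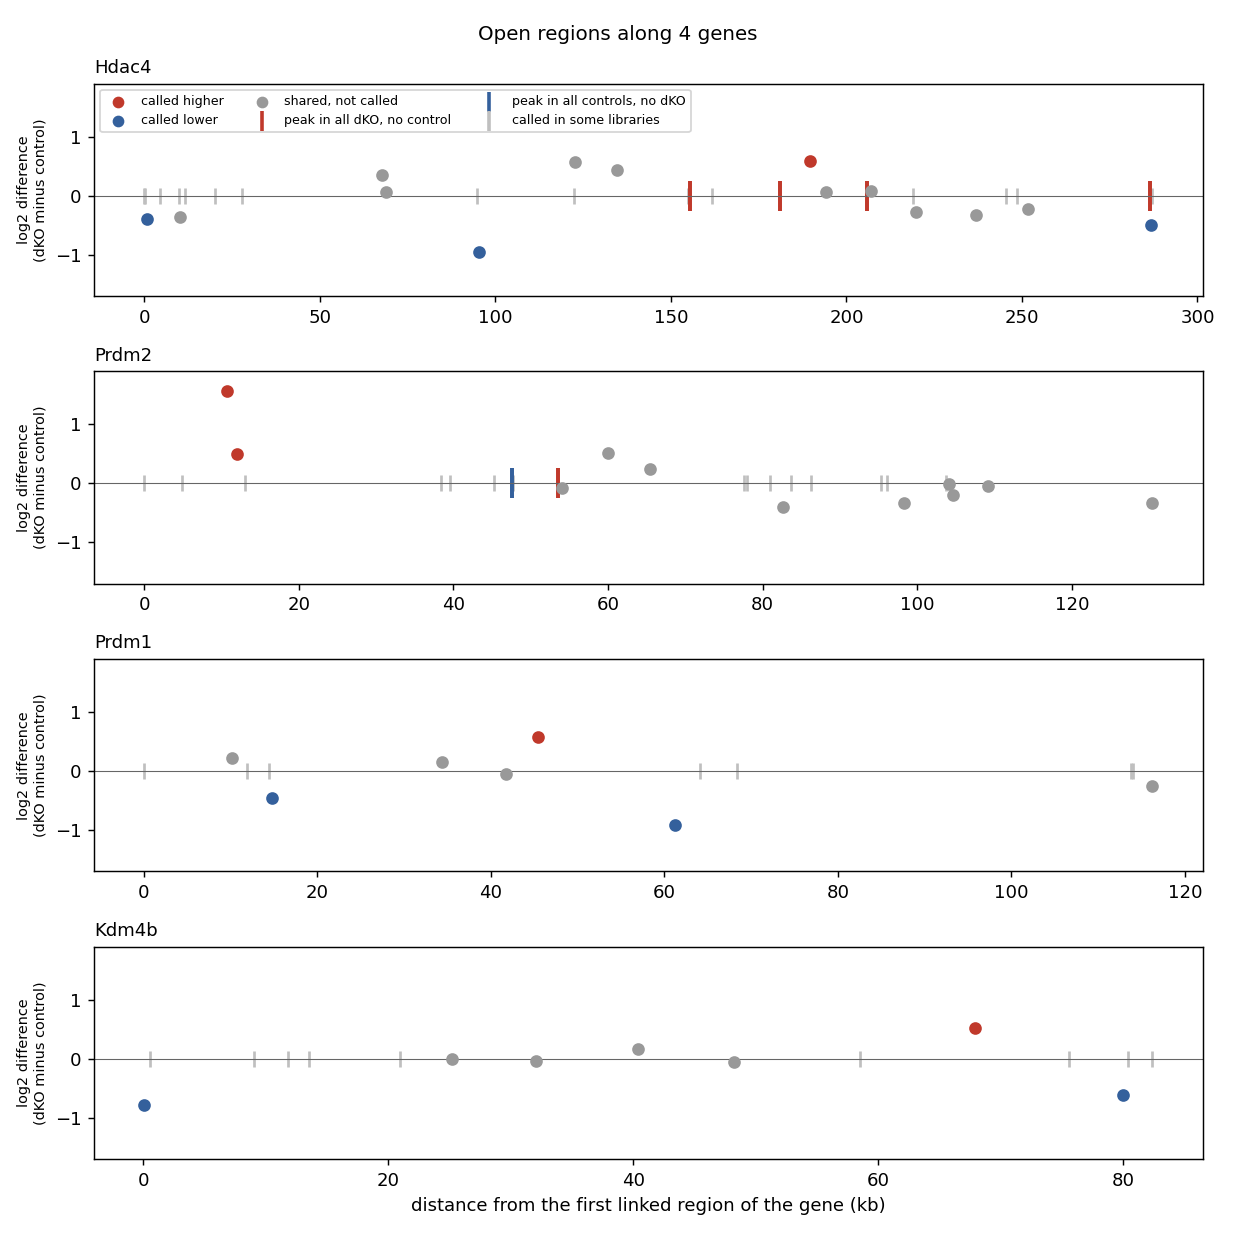
Log2 difference (dKO minus control) of the shared regions along Hdac4, Prdm2, Prdm1 and Kdm4b, against the distance in kb from the first linked region of each gene along the reference genome. Circles are shared regions (red higher, blue lower, grey not called), tall red and blue ticks are regions with a peak in all libraries of dKO or of control only, and grey ticks are regions called in some libraries. Hdac4, Prdm1 and Kdm4b held called regions of both directions.

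The PRDM transcription factor genes had 1 of 36 shared regions higher and 2 lower, and all 3 were at Prdm1, which encodes a repressor known from lymphocyte differentiation. Its region inside the gene at chr10:44474400-44474632 had 9.03, 9.25 and 18.3 in dKO, against 22.5, 24.6 and 23.7 in control. Every dKO library was lower, with dKO 3 apart from the other dKO libraries, and means were 12.2 ± 5.29 and 23.6 ± 1.05 (SD, n = 3 each), a log2 difference of -0.91 (SE 0.18, limma adjusted p = 0.00569, -1.08 and -0.48 in the narrow and wide class). The region over part of the printed window, starting at 44458589, had 36, 35.8 and 39.7 in dKO and 25.5, 24.7 and 26.5 in control. It was higher in every dKO library with little spread in either group, and the log2 difference was 0.58 (SE 0.11, adjusted p = 0.0049, and 0.052 without dKO 2). Another region, 9110 bp outside the gene and starting at 44427925, had 13.9, 11.6 and 13.8 in dKO and 18.9, 19.4 and 19 in control. It was lower by -0.45 on the log2 scale with groups apart (adjusted p = 0.0334), and the call was lost without any 1 of the 6 libraries (0.0566 to 0.116), without centring (0.0598) and without low-scoring peaks (0.0636). The other 4 shared Prdm1 regions were not called.

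Peaks found in one group alone were a separate set, described without a test. In 12 members (2.71%) all 3 dKO libraries and no control had a peak, against 1.57% of all regions, and in 5 (1.13%) all 3 controls and no dKO library had one, against 1.34%. Without dKO 3 these counts were 29 and 11, without control 1 they were 20 and 8, and without control 2 the control count was 10. Leaving out a library can only keep or raise these counts, because fewer lists must then meet the rule. The highest dKO site was at Prdm2, starting at 143161775, with 34.9, 38.1 and 55.3 in dKO and a fold over the local surroundings of 10.46 to 11.5. Its nearest control peak was 409 bp away, in a shared region starting at 143162203 with 46.5, 45.5 and 55.4 in dKO and 62.5, 45.6 and 54.8 in control. That neighbour had overlapping groups and a log2 difference of -0.07, so the site with no control peak lay beside one that was open in all libraries.

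Hdac4 held 4 of the 12 dKO peaks, more than any other member gene. Those starting at 92099559 (37.1, 24.9 and 25.1 in dKO) and 92179972 (20.6, 15.8 and 31.4) were 992 and 409 bp from the nearest control peak. For the first, that peak was in the shared region starting at 92100564, which was not called. For the second, it was in the region starting at 92180447, over part of the promoter window, which was called lower in dKO. Whether that lower region and the adjoining dKO peak are separate changes was not tested. The Kmt5a site starting at 124439939 overlapped only the last part of the first printed window of the gene. It had 12.9, 10.9 and 18.6 in dKO. Its folds over the surroundings were only 4.15 to 4.34, next to the minimum of 4 that every list shows. The other dKO sites, at Hdac4 (2 more), Kmt5c, Kmt2e, Kmt2c, Kdm3a, Hdac11 and Setd4, were weak, at 3.97 to 8.81. Of the control peaks, one inside Kdm6b, which removes methyl groups from H3K27, starting at 69408635, had 30.9, 29.5 and 32.4, and one inside Setd4, starting at 93592836, had 31.5, 36.4 and 21.6, with lowest folds of 4.30 and 4.36. The remaining 3 were a Prdm2 site (7.29, 10.6 and 13.8) and 2 Prdm16 sites 547 bp apart (3.88 to 8.09). A site in a broadly open stretch can miss the fold over its surroundings, so the absence of a peak does not show closed chromatin.

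**Figure D4:**
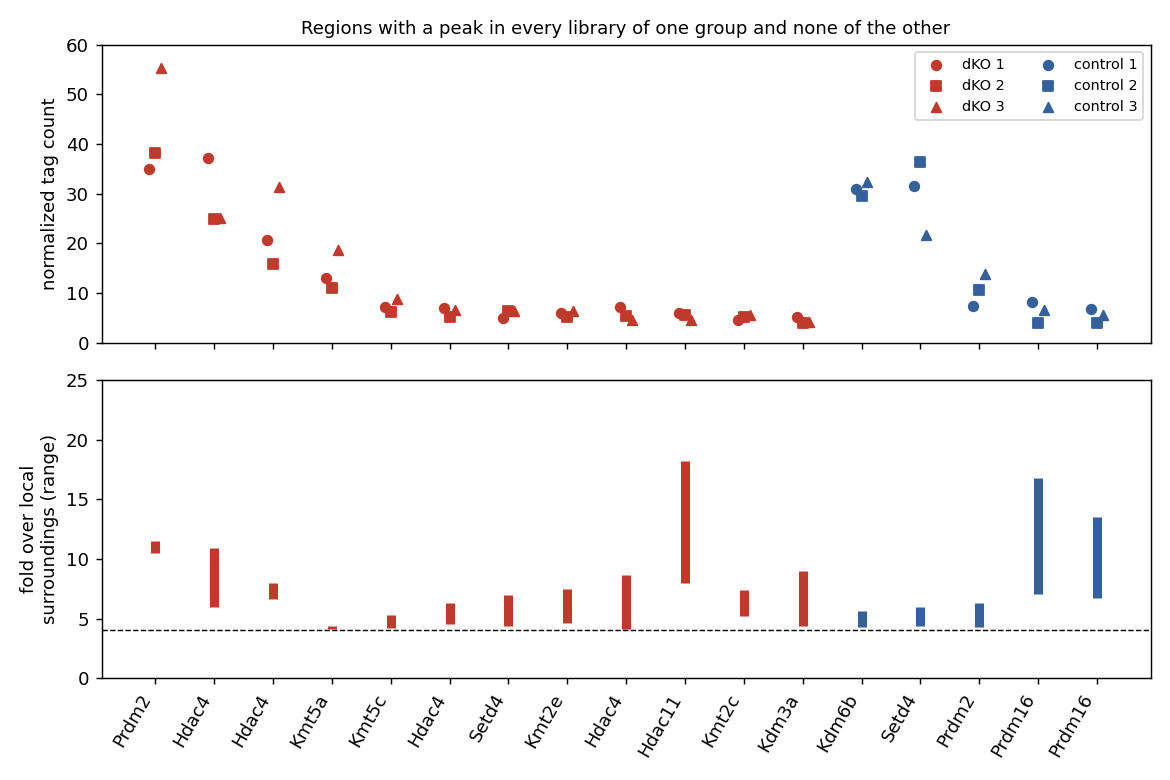
Upper panel, normalized tag count in each library with a peak for the 12 member regions with peaks in every dKO library but in none of the controls (red, left) and the 5 with the opposite pattern (blue, right), with shapes for the replicate number. Lower panel, range over those libraries of the fold over the local surroundings, with the dashed line at the minimum of 4. The Kmt5a site sat at 4.15 to 4.34, close to that line.

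The number of member regions with a peak was 343, 350 and 286 in dKO 1, 2 and 3, against 344, 281 and 261 in control 1, 2 and 3. The groups overlapped, at 326 ± 35.1 and 295 ± 43.3 (SD, n = 3 each, exact permutation test, 2-sided, p = 0.3, smallest possible 0.1). As a share of each library's regions this was 0.407%, 0.431% and 0.4% in dKO and 0.415%, 0.388% and 0.382% in control. Of the 442 members, 65 (14.7%) were called in 1 library, against 16.6% of all regions. When regions with a peak in at least 3 libraries were fitted, leaving out the libraries with none, 315 members were tested and 15 were higher and 13 lower, with 6.94% higher and 8.73% lower over all 76393 such regions. That fit called 3 higher and 3 lower among the 119 members not shared by all libraries. Hdac4 (starting at 91921362, log2 difference -0.99), Kmt5c (4739650, -1.05) and Kdm6a (18162358, -0.61) were lower, and Kmt2b (30572992, 0.85) was higher. The other higher calls rest on control 1 alone, a single value assumed to vary like the other groups. They are Setdb1 (95353436), with 11.9, 10.1 and 8.20 in dKO against 4.79 in control 1, and Kdm2a (4322304), with 8.28 and 8.15 in dKO 1 and 2 against 4.52 in control 1. The Kmt5c region, near the end of the gene for an enzyme that adds further methyl groups to H4K20, had 10.6, 8.52 and 15.1 in dKO and 27.8 and 22.4 in control 1 and 2, with no peak in control 3.

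Over 5 further lists of genes of related chemistry, 251 shared regions held 17 higher (6.77%) and 23 lower (9.16%), against 8.19% and 11.6% of all shared regions, with a median log2 difference of 0.03. Other methyltransferase and demethylase genes had 11 of 107 higher and 7 lower, sirtuins 1 of 10 higher and 1 lower, acetyltransferases 1 of 54 higher and 8 lower, subunits of other deacetylase complexes 4 of 64 higher and 6 lower, and arginine methyltransferases 0 of 16 higher and 1 lower by limma, with 6 at an unadjusted p under 0.05. The 8 lower acetyltransferase regions were 4 of the 14 at Kat2b and 4 of the 16 at Kat6b. The strongest at Kat2b, an acetyltransferase that acts as a coactivator, started at 53643476 and had 27.8, 23.7 and 32.6 in dKO and 47.5, 50 and 48.3 in control, a log2 difference of -0.72 (adjusted p = 0.00147, 0.000878 to 0.0207 with any 1 library left out). At Jmjd1c, of the demethylase family, 6 of 14 shared regions were higher. The strongest started at 67115883, with 26.1, 20.6 and 22.3 in dKO and 9.85, 15.3 and 11.2 in control, a log2 difference of 0.95 (adjusted p = 0.0034, 0.00129 to 0.0317 with any 1 library left out). Groups were apart in both regions. These 2 genes were chosen after their values were seen, and 9 to 35 of the 40 calls were kept when 1 library was left out, with the lowest number without dKO 2 and 18 without dKO 1.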

How the data were processed

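The members and lists were chosen with earlier results of these data known, the Prdm2 region starting at 143118955 among them, so none is independent support. Per the submitters' processing notes, Trim Galore 0.6.4, Picard, SAMtools 1.10 and HOMER 4.11 were used on mm10. The aligner and read filters, like any cut-site shift and the options of the peak caller, were not given in the sources used here. Peaks were deposited as a separate list for every library. Per the file headers, the authors' normalized tag count is a signal scaled to depth, and the depth itself is unknown. The deposited peak score (lowest 35.5) and the authors' fold over the local surroundings, a ratio (lowest 4), served only to describe or filter peaks within a list. Lists held 71473 to 84614 peaks in dKO and 68316 to 83371 in control.

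Peaks on chromosomes 1 to 19 and X that shared at least 1 bp were merged, and a region's value was the highest in each library. The nearest span of a protein-coding gene within 50 kb, from a RefSeq table (GRCm38.p6), gave each region its gene. The table gives spans only, so exons, introns and UTRs were not analysed here. The 51749 regions with a peak in every library were tested on log2(value + 1), which understates changes of weak regions, after centring each library on its median. limma 3.58.1 in R 4.3.3 was fitted with a mean-variance trend and the group as the only term, on all of them together, with 2-sided p-values adjusted by the Benjamini-Hochberg method and 0.05 as the threshold. SE is moderated. Since the labels do not say that replicates are separate animals, the p-values reflect only library-to-library spread, possibly technical. Scripts were tested on simulated data. Named are, in each of the 5 families, up to 5 regions called in each direction with the smallest p, all shared regions of the 3 genes with the most calls, the strongest shared region at a gene end, and up to 3 regions per direction found in one group alone. The Kmt5a regions starting at 124446587 and 124439939 and the Kdm7a region at the gene end came from this rule. The regions at the other Kmt5a starts, the other Kdm7a regions, Setd7 and the regions from the fit with at least 3 libraries were added after their values were seen. Alternatives changed the pseudocount, filter, scaling, merging, linking distance, score filter, width term, replicate block and each library left out.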

Additional observations from a re-analysis of the deposited data

How the results depend on the processing

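Of the 24 called member regions, 5 kept the call under every alternative that tested them, namely Prdm2 at 143118955, Hdac4 at 91988880, Kmt5a at 124446587, Prdm1 at 44474400 and Kdm4b at 56325588, and no called region changed direction. With a mean value of at least 20, where fewer regions are tested, 6 members were higher, and without centring 7 were higher and 7 lower. With the lowest-scoring peaks of each list left out, 5 were lower and 6 were found in dKO alone. Leaving out 1 library gave 2 to 15 higher and 3 to 26 lower, and the cause was not tested. It gave 12 to 29 found in dKO alone and 5 to 11 in control alone, counts that can only stay or rise in this way. The share of member calls that were lower was 45.8%, against 36.4% after quantile normalization, 50% without centring, 25% with the score filter and 64.7% with the mean filter. With the replicate number as a block, 19 members were higher and 20 lower, and all 24 calls were kept. Same-numbered libraries deviated together at correlations of 0.146, -0.0322 and 0.234, so the numbers were not taken to pair them. Among 23 named regions that were not called, 11 changed sign without a call in some setting and 5 were called in some setting. A test of whether the group difference varied with peak width called 0 members by limma, with 19 of 196 at an unadjusted p under 0.05. Over all 51749 shared regions it also called 0, with 5393 at that p. Each class held only 1 or 2 libraries of a group, so this cannot show that width had no effect. Most lower calls were stronger in the narrow class. The difference was smaller in the wide class at 10 of the 11. As often, dKO 3 was the dKO library nearest the controls. The 13 higher calls gave 9 and 3 for these counts. Narrow and wide differences at the lower regions were -0.7 and -0.11 for Hdac6, -0.73 and -0.13 for Kmt2c, and -0.63 and -0.19 for Kdm2b. The wide class held dKO 3 as its only dKO library, and width was not tested apart from it. The depth behind the values is unknown, so no counting error is given.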
